A study of Homo sapiens with 6 samples.

Results

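Lysosomal enzymes, the proteins that assist or carry them and the subunits of the vacuolar proton pump (V-ATPase) were followed in HaCaT cells, a spontaneously immortalized line of human keratinocytes, after transfection of a miR-21-3p mimic. The members were 47 genes listed by name: 8 cathepsins, 2 other proteases, 11 glycosidases and sulfatases, 4 lipid hydrolases, 3 lumenal cofactors, 6 membrane proteins, the autophagy receptor SQSTM1, the transcription factors TFEB and TFE3, and 10 V-ATPase subunits. The lysosomal membrane genes of the LAMP family were not on the list. Of the 47 genes, 44 had a row among the 22152 genes of the deposited table, 43 under the listed symbol and CTSL by its gene identifier under the older symbol CTSL1. The transcripts of HEXA, NAGLU and CLN3 were not analysed here. A row under the symbol CLN3, at 0 in all 6 libraries, carries the identifier of a gene that the reference annotation (GENCODE release 29) names AC138894.1, and it was left out. All 44 members with a row were tested.

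The comparison asked which transcripts differ between cells carrying extra miR-21-3p and cells carrying a control. Both groups were HaCaT cells transfected at 1 nM and harvested 48 h later. The NC mimic group received a synthetic negative control miRNA and the miR-21-3p mimic group received synthetic miR-21-3p, the less abundant strand of the miR-21 hairpin. Each group had 3 biological replicates, and the sample labels give polyadenylated RNA as the material sequenced. The values are read counts per gene divided by a size factor per library, called normalized read counts below. Recovered reads per library came to 24402702, 24528084 and 26171071 for NC mimic replicates 1 to 3, and to 24808070, 24975165 and 27985647 for the miR-21-3p mimic replicates.

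Lysosomes are acidic organelles that degrade proteins, glycans and lipids delivered by endocytosis and autophagy. The V-ATPase acidifies them by pumping protons through its membrane sector V0, driven by ATP hydrolysis in its cytosolic sector V1. Many genes of both kinds carry an E-box element in their promoters that TFEB and TFE3 bind when these factors enter the nucleus, as in starvation. In the epidermis, lysosomal proteases take part in the breakdown of cell content and in the maturation of enzymes as keratinocytes differentiate.

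Of the keratinocyte markers, 9 of 10 had a row, and their summed normalized read count lay between 295800 and 324900 in the 6 libraries, led by KRT5. KRT6A, a keratin of activated keratinocytes that shares much of its sequence with KRT6B and KRT6C, was higher with the mimic (log2 difference 0.34, limma adjusted p = 0.00207), and the other 8 tested markers were not called by limma. Of these, SFN was higher by DESeq2 (log2 difference 0.14, adjusted p = 0.0293). SFN and TP63 had an unadjusted p under 0.05 in limma, TP63 on the other side of 0, at 7180 to 7680 in the controls and 6460 to 7120 with the mimic (log2 difference -0.13, limma adjusted p = 0.102). COL1A1 was the one fibroblast marker with a row and lay between 364 and 560 normalized read counts. The melanocyte gene PMEL lay between 120 and 155, and the monocyte gene CD14 between 58.7 and 92.2. These 3 were the only ones with a row among the fibroblast, melanocyte and leukocyte markers, and none was called by limma. COL1A1 was at unadjusted p under 0.05 and was lower by DESeq2. Its part in the results was not tested.

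One control library stood closer to the treated group than the others. On the first principal component of all tested genes (46.7% of the variance) NC mimic replicate 2 lay at -1.9, against -21.3 and -13.3 for replicates 1 and 3 and 6.9 to 17.8 for the miR-21-3p mimic libraries. The treated library nearest the controls was miR-21-3p mimic replicate 2, at 6.9. Results are also given with each library left out in turn. Calls gained without either of these 2 libraries add no support, since each stands out by its closeness to the other group.

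With the mimic, 6 members were lower and 2 were higher at an adjusted p under 0.05 in limma's test over all 14795 tested genes. The 6 that fell were the cathepsins CTSA and CTSS, the sialidase NEU1, the thioesterase PPT1, the saposin precursor PSAP and SQSTM1. The 2 that rose were the cathepsin CTSC and the V-ATPase subunit ATP6V1B2. The lower members made up 13.6% of the 44 tested, beside 4.66% of all tested genes (689 genes). The higher members made up 4.55%, beside 6.11% of all tested genes (904 genes). The median log2 difference, taken throughout on the log2 of the normalized read count plus 1 as miR-21-3p mimic minus NC mimic, was -0.07 over the 44 members and 0.004 over all tested genes. With 1 library left out the members' median ran from -0.079 to -0.043. By library, the members' median difference from the control mean was -0.03 to 0.03 in the controls. It was -0.09 to -0.02 with the mimic, so the groups overlapped. Of the 44 members, 68.2% had a point value below 0, against 49.0% of all tested genes. All 3 mimic libraries lay below all 3 control libraries for 13 members (29.5%, beside 14.8% of tested genes) and above them for 10 (22.7%, beside 16.5%). The members had more reads behind them than most genes, with a median of 1980 normalized read counts against 647 over the tested genes. Among genes with a mean of at least 1000, a level chosen after the values were seen, 6.04% of 5683 were lower and 9.96% were higher. Of the 31 members at that level, 5 were lower (16.1%) and 2 were higher (6.45%). Less RNA per cell and fewer cells of a kind cannot be told apart in bulk RNA.

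The counts moved with single libraries. Without NC mimic replicate 2, 12 members were lower and 3 were higher, with 1334 and 1632 genes called lower and higher in all. Without NC mimic replicate 3, CTSS was the one member called, with 81 and 98 genes in all. Without NC mimic replicate 1, miR-21-3p mimic replicate 1 or miR-21-3p mimic replicate 3, 2 members were lower in each case, CTSS and NEU1, and CTNS was higher without NC mimic replicate 1. In these 3 fits 229, 131 and 163 genes were lower and 315, 145 and 202 were higher in all. Without miR-21-3p mimic replicate 2, 10 members were lower and 1 was higher, with 642 and 900 genes in all.

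**Figure D1:**
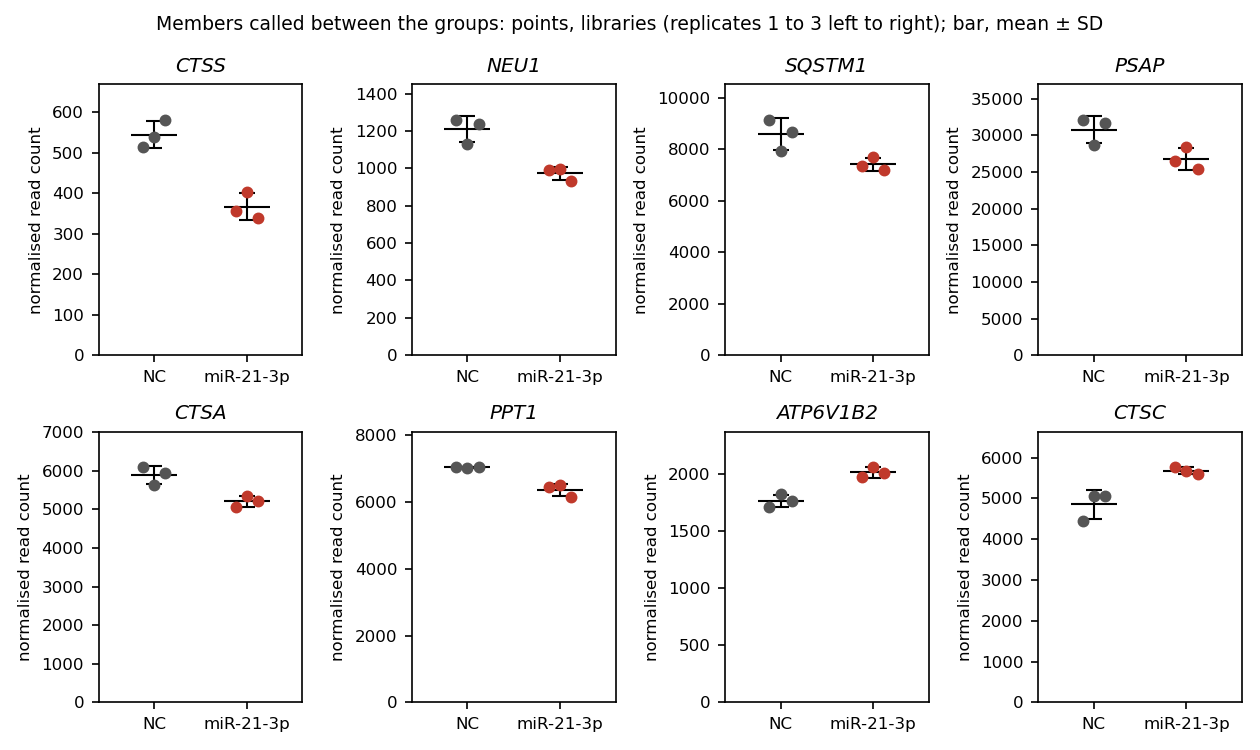
Normalized read counts (vertical axis, from 0) of the 8 members called between the groups, one panel per gene. Points are the 3 NC mimic libraries (grey) and the 3 miR-21-3p mimic libraries (red), and bars are the mean ± SD. The groups do not overlap in any of the 8 panels, and CTSS, at 339 to 404 against 514 to 581, shows the widest separation relative to its level. The 8 genes were chosen by their call on the same values, so the lack of overlap adds no support.

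Among the cathepsins, CTSS and CTSA fell, CTSC rose and the other 5 were not called. CTSS, a cysteine protease of antigen processing that stays active at neutral pH, counted 514, 538 and 581 in the NC mimic libraries and 357, 404 and 339 in the miR-21-3p mimic libraries. Every treated library was below every control library. Its log2 difference was -0.57 (95% confidence interval -0.75 to -0.39), a fold of 0.673 (limma adjusted p = 0.00403). CTSA is a serine carboxypeptidase that also protects NEU1 and the galactosidase GLB1 in a shared complex. It counted 6100, 5640 and 5940 in the controls and 5070, 5340 and 5220 with the mimic, again without overlap. Its log2 difference was -0.18 (-0.28 to -0.08; limma adjusted p = 0.0298). CTSC, a dipeptidyl peptidase whose loss causes thickened skin of palms and soles, counted 4450, 5050 and 5070 in the controls and 5770, 5680 and 5600 with the mimic. The control library farthest from the treated ones was replicate 1. The log2 difference of CTSC was 0.23 (0.11 to 0.35; limma adjusted p = 0.021).

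Per kilobase of exon (union of the basic transcripts of GENCODE release 29, which may differ from the annotation behind the counts), the control means ran from 3440 normalized read counts for CTSB and 3280 for CTSH through 2520 for CTSA, 2270 for CTSD, 1880 for CTSZ, 920 for CTSL and 636 for CTSC to 133 for CTSS. Among these 8 cathepsins, the one with the clearest fall in proportion was thus the least abundant. The uncalled cathepsins had log2 differences of -0.17 for CTSH, -0.14 for CTSB, -0.13 for CTSD, -0.03 for CTSL and 0.05 for CTSZ. CTSD shares 1304 of its 3126 exon bases with another annotated gene on the same strand, so its value is uncertain. Summed over the 8 cathepsins, the normalized read count was 41150 to 43460 in the controls and 38530 to 41900 with the mimic, so the groups overlapped. CTSS was called in all 6 fits that left out 1 library, with log2 differences from -0.64 to -0.52. CTSA and CTSC were called without NC mimic replicate 2 and without miR-21-3p mimic replicate 2, and not without any one of the other 4 libraries, where the values were -0.18 to -0.15 for CTSA and 0.17 to 0.26 for CTSC. CTSB was called lower without NC mimic replicate 2 (-0.18) and without miR-21-3p mimic replicate 2 (-0.20), and CTSH without NC mimic replicate 2 (-0.22). Over all 6 of these fits CTSB ran from -0.20 to -0.10, CTSH from -0.22 to -0.11, CTSD from -0.16 to -0.08, CTSL from -0.05 to 0.00 and CTSZ from 0.04 to 0.08.

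The other proteases were LGMN, an asparaginyl endopeptidase that processes cathepsins, and TPP1, a tripeptidyl peptidase. Neither passed the threshold, although both groups of libraries were apart for both genes. LGMN lay at 1140 to 1180 in the controls and 955 to 1080 with the mimic, a log2 difference of -0.19 (limma adjusted p = 0.0558). TPP1 lay at 6290 to 6560 and 5720 to 6050, a log2 difference of -0.13 (limma adjusted p = 0.0703), and shares 756 of 6544 exon bases with an overlapping gene on its strand. Both had an unadjusted p under 0.05, and neither was called by edgeR with TMM scaling or by DESeq2. Without NC mimic replicate 2 both were called lower, at -0.20 for LGMN and -0.14 for TPP1, and LGMN was called without miR-21-3p mimic replicate 2 as well, at -0.23.

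NEU1 was the one call among the 9 tested glycosidases and sulfatases. This enzyme removes terminal sialic acid from glycoproteins and glycolipids. It counted 1260, 1130 and 1240 in the controls and 992, 997 and 932 with the mimic, so the lowest control stood above the highest treated library. Its log2 difference was -0.31 (-0.44 to -0.18), a fold of 0.805 (limma adjusted p = 0.0106). NEU1 was called in 5 of the 6 fits without 1 library, and not without NC mimic replicate 3, where the difference was -0.29. GLB1, the galactosidase of the same complex, had a log2 difference of -0.02 with an interval of -0.14 to 0.11. Whether it differed from the falls of NEU1 and CTSA was not tested.

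The remaining glycosidases and sulfatases were not called. IDS, which removes sulfate from heparan and dermatan sulfate and had the most reads in this group, counted 4950 to 5500 in the controls and 4380 to 4960 with the mimic (log2 difference -0.15, limma adjusted p = 0.117). Its exons share 1529 of 9292 bases with another gene on the same strand and a pseudogene resembles it, so its level is uncertain. Without NC mimic replicate 2 IDS was called lower at -0.20, and without miR-21-3p mimic replicate 3 its difference was -0.09 (limma adjusted p = 0.377). The log2 differences of the others were -0.14 for GAA (glycogen breakdown), -0.13 for MANBA and -0.12 for MAN2B1 (mannose removal), -0.09 for SGSH (heparan sulfate breakdown), 0.07 for GUSB (glucuronic acid removal) and 0.15 for GLA (galactose removal from globosides). With 1 library left out GAA ran from -0.23 to -0.06, MANBA from -0.16 to -0.07, MAN2B1 from -0.14 to -0.09, SGSH from -0.14 to -0.04, GUSB from 0.04 to 0.10 and GLA from 0.12 to 0.16. MANBA and MAN2B1 also share exon bases with other genes on their strand. Summed over the 9 genes, the controls lay between 11230 and 12230 and the treated libraries between 10380 and 11270.

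Since TFEB and TFE3 bind E-boxes, the RefSeq promoter windows (GRCh38.p14, 250 bases before to 50 bases after each start) were searched for the 6 letters CACGTG and for the 8 letters TCACGTGA that contain them. Both motifs read the same on both strands. Of the 47 members, 33 matched an entry by symbol, with 50 windows. CACGTG stood in 9 of these 50 windows (18.0%), against 7.26% of all 35116 windows, and TCACGTGA in 6 (12%), against 0.98%. The windows of CLN3 (chr16:28492025-28492324 and chr16:28492033-28492332) overlap and hold the same sites, so the window counts take CLN3 more than once. These shares describe the sequence of the genes and do not depend on the treatment. By gene, CACGTG was found for CTSA, NEU1, CTSD, GAA, CD63, MCOLN1, CLN3 and ATP6V0D1. Of the 4 lower members with an entry, CTSA and NEU1 had a match, and PPT1 and SQSTM1 had none. CTSC, the one higher member with an entry, had none. Among the members tested and not called, 5 of 27 had a match. By gene this was 8 of the 33 members (24.2%), against 8.77% of all 27305 genes with an entry. The windows are shown for the called members with a match, CTSA (chr20:45891085-45891384, plus strand) and NEU1 (chr6:31862772-31863071, minus strand), and for the uncalled members with the 8-letter motif, GAA (chr17:80101331-80101630, plus strand), MCOLN1 (chr19:7522374-7522673, plus strand) and ATP6V0D1 (chr16:67481108-67481407, minus strand). Each is written 5′ to 3′ on the strand of the gene, with the motif letters in capitals.
CTSA: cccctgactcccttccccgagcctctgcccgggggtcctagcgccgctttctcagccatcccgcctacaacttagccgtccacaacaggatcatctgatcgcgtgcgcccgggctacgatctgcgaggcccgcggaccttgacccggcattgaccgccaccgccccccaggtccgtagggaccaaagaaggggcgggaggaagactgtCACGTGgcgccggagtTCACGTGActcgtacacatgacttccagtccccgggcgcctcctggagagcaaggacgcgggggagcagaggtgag
NEU1: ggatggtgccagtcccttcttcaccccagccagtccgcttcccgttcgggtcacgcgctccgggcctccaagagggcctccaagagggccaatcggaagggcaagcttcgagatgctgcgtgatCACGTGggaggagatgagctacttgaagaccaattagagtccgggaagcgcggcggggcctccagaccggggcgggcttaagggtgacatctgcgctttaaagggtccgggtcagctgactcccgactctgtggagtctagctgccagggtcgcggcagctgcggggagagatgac
GAA: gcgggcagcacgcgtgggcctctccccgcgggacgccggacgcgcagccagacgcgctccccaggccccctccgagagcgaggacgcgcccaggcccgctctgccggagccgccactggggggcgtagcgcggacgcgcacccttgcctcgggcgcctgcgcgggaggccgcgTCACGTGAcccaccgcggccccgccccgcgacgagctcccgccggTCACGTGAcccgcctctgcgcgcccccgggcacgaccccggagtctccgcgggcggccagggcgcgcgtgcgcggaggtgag
MCOLN1: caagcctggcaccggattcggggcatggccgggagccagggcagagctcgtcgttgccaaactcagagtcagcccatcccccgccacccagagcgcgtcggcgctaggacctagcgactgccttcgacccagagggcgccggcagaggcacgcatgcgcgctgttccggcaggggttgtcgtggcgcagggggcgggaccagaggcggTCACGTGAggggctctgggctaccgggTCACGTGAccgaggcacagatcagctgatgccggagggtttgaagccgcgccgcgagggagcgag
ATP6V0D1: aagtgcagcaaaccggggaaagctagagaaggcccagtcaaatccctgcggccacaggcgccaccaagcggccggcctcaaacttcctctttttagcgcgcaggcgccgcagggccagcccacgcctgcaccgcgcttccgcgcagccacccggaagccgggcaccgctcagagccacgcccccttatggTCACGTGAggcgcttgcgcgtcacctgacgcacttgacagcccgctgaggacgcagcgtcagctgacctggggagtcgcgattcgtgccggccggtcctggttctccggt
Positions are those of the first letter of CACGTG, counted from the start, also where the 8 letters match. CTSA carries its 2 matches at -42 and -25, NEU1 a single one at -126 and GAA at -76 and -31. MCOLN1 carries matches at -41 and -14 and ATP6V0D1 at -59. GAA and MCOLN1, each with 2 matches of the 8 letters, were not called, at log2 differences of -0.14 and -0.24. A match describes letters and not a bound site.

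Of the 4 lipid hydrolases, PPT1 fell and the others were not called. PPT1, which removes fatty acids from proteins, counted 7040, 7020 and 7040 in the controls and 6430, 6500 and 6140 with the mimic. The control libraries were nearly equal and all stood above the treated ones. Its log2 difference was -0.15 (-0.24 to -0.06; limma adjusted p = 0.0432). LIPA, the acid lipase that hydrolyses cholesteryl esters and triglycerides, had the most reads of this group and lay on the other side of 0. It counted 12100 to 12400 in the controls and 13000 to 13700 with the mimic, a log2 difference of 0.13 (limma adjusted p = 0.0728) without overlap. The acid ceramidase ASAH1 had a log2 difference of -0.14 (limma adjusted p = 0.0751), and the acid sphingomyelinase SMPD1 one of -0.15 (limma adjusted p = 0.338), with libraries from 520 to 682. PPT1 was called without NC mimic replicate 2 and without miR-21-3p mimic replicate 2, and not without any one of the other 4 libraries (-0.15 to -0.12). ASAH1 was called lower without miR-21-3p mimic replicate 2, at -0.17, and ran to -0.11 in the other fits, while SMPD1 ran from -0.24 to -0.09.

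PSAP, the precursor of the saposins that present sphingolipids to their hydrolases, was the most abundant member, with a control mean of 10700 normalized read counts per kilobase of exon. It counted 32100, 28600 and 31600 in the controls and 26500, 28400 and 25400 with the mimic. Control replicate 2 and treated replicate 2 were close to each other, and the groups did not overlap. The log2 difference was -0.20 (-0.33 to -0.07; limma adjusted p = 0.0488), just inside the threshold, and PSAP was not called when genes with low values were kept in the test. It was called without NC mimic replicate 2 or miR-21-3p mimic replicate 2, and not without any one of the other 4 libraries (-0.19 to -0.16). The progranulin gene GRN had a log2 difference of -0.16 (limma adjusted p = 0.131), and was called lower without NC mimic replicate 2 (-0.22) and without miR-21-3p mimic replicate 2 (-0.23). NPC2, which hands cholesterol to NPC1, had one of 0.10 (limma adjusted p = 0.122), with the treated libraries (4330 to 4410) above the controls (4000 to 4160). Summed over the 3 cofactors, the libraries spanned 39770 to 44230 in the controls and 36430 to 40400 with the mimic.

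None of the 5 tested membrane proteins was called by limma, edgeR or DESeq2, and 1 had an unadjusted p under 0.05. That one was CTNS, the cystine exporter, at 312 to 378 in the controls and 385 to 421 with the mimic, a log2 difference of 0.27 with an interval of 0.07 to 0.46 (limma adjusted p = 0.0739). Without NC mimic replicate 1 CTNS was called higher, at 0.36. The calcium channel MCOLN1 counted 150 to 168 in the controls and 124 to 145 with the mimic, without overlap. Its log2 difference was -0.24 (-0.48 to 0.00, limma adjusted p = 0.18). Per kilobase of exon its control mean of 76.2 was the lowest among the tested members. NPC1, which exports cholesterol and had the most reads in this group, differed by 0.01 (-0.11 to 0.13), SCARB2, the receptor that carries glucocerebrosidase, by -0.02 (-0.15 to 0.10), and the tetraspanin CD63 by -0.02 (-0.11 to 0.08). For these last 3 the sign turned with the library left out.

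**Figure D2:**
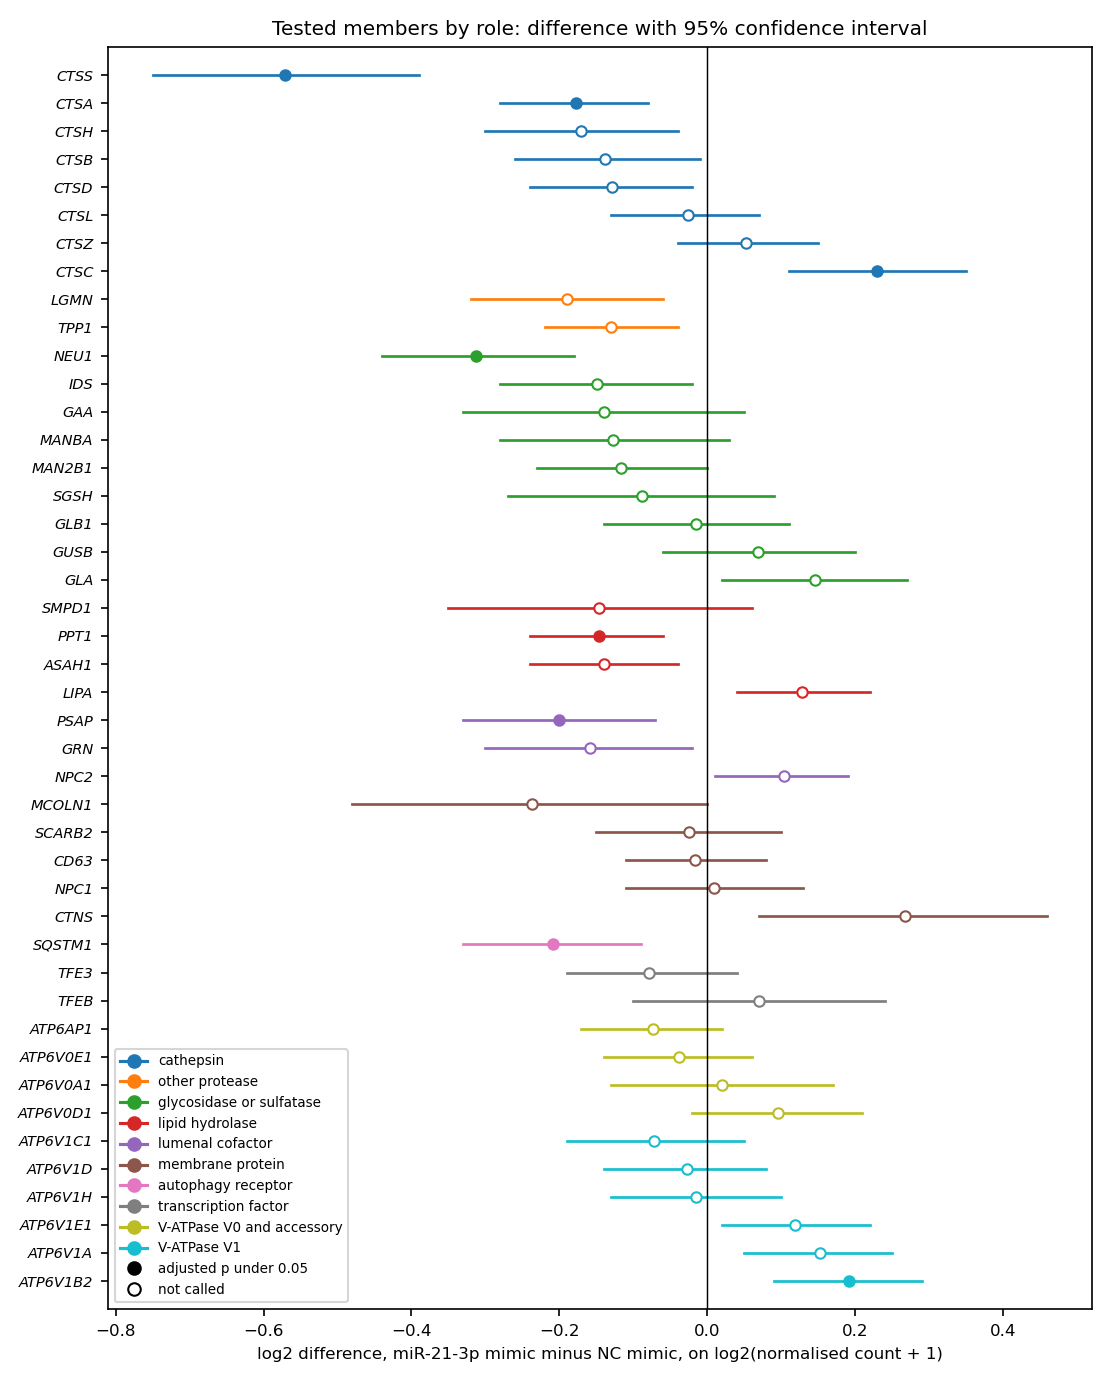
Log2 difference between the miR-21-3p mimic and NC mimic groups (horizontal axis) for the 44 tested members, grouped by role in color. Points are estimates from 3 against 3 libraries, lines are 95% confidence intervals, and filled points passed an adjusted p under 0.05; values run from -0.57 for CTSS to 0.27 for CTNS.

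Among the V-ATPase subunits ATP6V1B2 rose. Of the 10 subunits on the list, 1 was higher and none was lower in limma, edgeR or DESeq2. In limma 6.11% of all tested genes were higher and 4.66% were lower. The median log2 difference of the subunits was 0.00, beside -0.13 over the 23 tested hydrolases. The 2 medians were not tested against each other. ATP6V1B2, an ATP-binding subunit of V1, counted 1710, 1820 and 1760 in the controls and 1970, 2060 and 2010 with the mimic. All treated libraries were above all controls, with a log2 difference of 0.19 (0.09 to 0.29; limma adjusted p = 0.0266). ATP6V1A, its catalytic partner and the subunit with the most reads, counted 3890, 4260 and 4080 in the controls and 4530, 4520 and 4530 with the mimic. Its log2 difference was 0.15 (0.05 to 0.25), just outside the threshold (limma adjusted p = 0.0507), although the treated libraries were nearly equal and above every control. ATP6V1E1, of the stalk of V1, differed by 0.12 (limma adjusted p = 0.118). The other V1 subunits differed by -0.03 for ATP6V1D, -0.01 for ATP6V1H and -0.07 for ATP6V1C1.

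In the membrane sector the differences were 0.10 for ATP6V0D1, 0.02 for ATP6V0A1, -0.04 for ATP6V0E1 and -0.07 for the accessory subunit ATP6AP1. ATP6AP1 had the most reads of these 4, with libraries from 3000 to 3260. Over the 10 subunits no 95% interval reached below -0.19 or above 0.29. The summed normalized read count of the 6 V1 subunits was 11060 to 11690 in the controls and 12040 to 12230 with the mimic, and that of the 4 membrane and accessory subunits was 7340 to 7560 and 7170 to 7470. ATP6V1B2 was called without NC mimic replicate 2, and not without any one of the other 5 libraries, where its difference was 0.17 to 0.21. ATP6V0D1 ran from 0.06 to 0.14 over all 6 fits. ATP6V1A was called without NC mimic replicate 2, at 0.18.

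The 10 other V-ATPase genes with a row gave 1 call in each direction in limma, beside 6.11% of all tested genes higher and 4.66% lower. ATP6V0E2, a small V0 subunit, was higher, at 487, 577 and 488 in the controls and 645, 610 and 691 with the mimic (log2 difference 0.33, limma adjusted p = 0.0261). An antisense gene lies at this locus and the strand setting of the counting is not given in the sources used here, so the source of these reads is uncertain. TCIRG1, an isoform of the a subunit of V0, was lower, at 1880, 1700 and 1690 against 1480, 1530 and 1560 (log2 difference -0.20, limma adjusted p = 0.0355). The member ATP6V0A1, another isoform of that subunit, was not called. A second pair of isoforms was picked after the values were seen. ATP6V1B1, the isoform of ATP6V1B2 known from kidney and inner ear, counted 4470, 3390 and 3990 in the controls and 3230, 3650 and 2920 with the mimic, with overlapping groups and a log2 difference of -0.27 (-0.47 to -0.07; limma adjusted p = 0.0819). DESeq2 called it lower (adjusted p = 0.0255). In the controls ATP6V1B1 stood at 2040 normalized read counts per kilobase of exon and ATP6V1B2 at 613. Both calls moved with single libraries. ATP6V0E2 was lost without NC mimic replicates 1 or 3 or miR-21-3p mimic replicates 1 or 3 (0.28 to 0.33), and TCIRG1 without every library but NC mimic replicate 2 (-0.23 to -0.15).

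**Figure D3:**
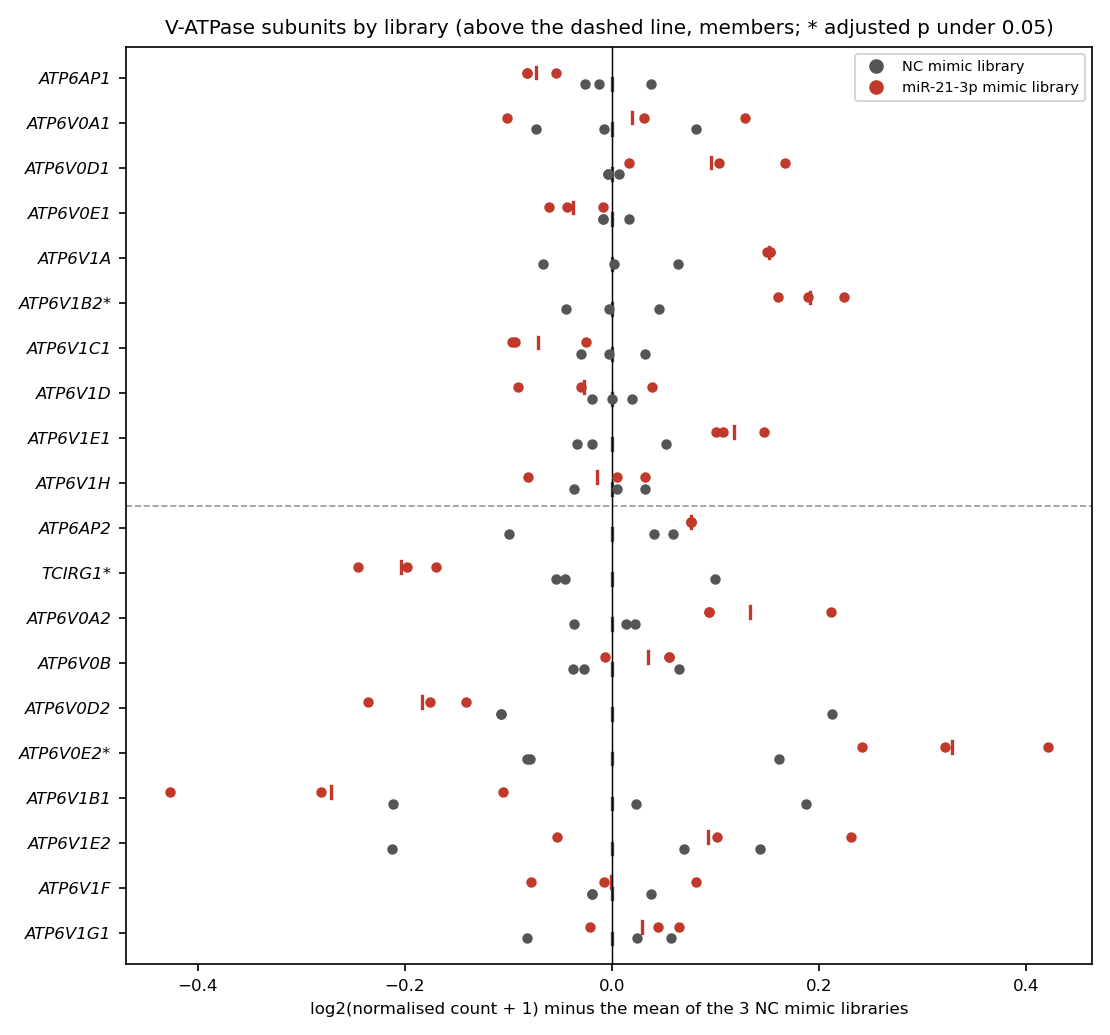
Log2 of the normalized read count plus 1 of each library minus the mean of the 3 NC mimic libraries (horizontal axis) for 20 V-ATPase subunits, the 10 members above the dashed line. Grey points are NC mimic and red points miR-21-3p mimic libraries, ticks are group means and an asterisk marks an adjusted p under 0.05; ATP6V1B2 and ATP6V0E2 lie to the right and TCIRG1 to the left of their controls.

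TFEB and TFE3 were not called, and neither had an unadjusted p under 0.05; edgeR and DESeq2 called neither. TFEB counted 522, 449 and 482 in the controls and 501, 540 and 483 with the mimic, a log2 difference of 0.07 (-0.10 to 0.24; limma adjusted p = 0.593). TFE3, with more reads, counted 1920, 1760 and 1770 and then 1710, 1790 and 1660, a log2 difference of -0.08 (-0.19 to 0.04; limma adjusted p = 0.359). Both groups overlapped for both genes. With 1 library left out TFEB ran from 0.02 to 0.13 and TFE3 from -0.11 to -0.04. These are transcript levels, and the place of the proteins in the cell, which sets their activity, was not measured.

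SQSTM1, the receptor that links ubiquitinated cargo to the autophagosome and is itself degraded in lysosomes, fell. It counted 9150, 7930 and 8680 in the controls and 7370, 7690 and 7200 with the mimic, without overlap. Its log2 difference was -0.21 (-0.33 to -0.09; limma adjusted p = 0.032). SQSTM1 was called without NC mimic replicate 2 and without miR-21-3p mimic replicate 2, and not without any one of the other 4 libraries (-0.20 to -0.16).

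In 6 lists of further genes of the pathway, 103 of 119 had a row and all 103 were tested; 11 were lower and 4 were higher, beside the 4.66% and 6.11% of all tested genes. Their median log2 difference was -0.02. The largest share of calls was on the autophagy list, where 4 of 18 were lower and 1 was higher. ULK1, the kinase that starts autophagosome formation, counted 1730, 1390 and 1440 in the controls and 1220, 1240 and 1140 with the mimic (log2 difference -0.33, limma adjusted p = 0.019). GABARAPL1, a ubiquitin-like protein of the autophagosome membrane, counted 2430, 2000 and 2240 and then 1890, 1820 and 1660 (log2 difference -0.31, limma adjusted p = 0.0195); a near-identical pseudogene makes its count uncertain. The cargo receptor OPTN counted 3910, 3350 and 3770 and then 3050, 3260 and 2770 (log2 difference -0.28, limma adjusted p = 0.0238). TAX1BP1, another cargo receptor, counted 3690, 3820 and 3900 and then 3270, 3430 and 3170 (log2 difference -0.21, limma adjusted p = 0.018). With SQSTM1, then, 3 cargo receptors were lower. The other 2 on the list, NBR1 and CALCOCO2, named after the values were seen, were not called, at -0.08 and -0.10. ATG3, a conjugating enzyme of this system, was higher in limma (log2 difference 0.20, adjusted p = 0.0465) and not called by DESeq2 (adjusted p = 0.0712) or without a filter (adjusted p = 0.0512). The calls for ULK1 (-0.37 to -0.30) and TAX1BP1 (-0.21 to -0.18) were lost without NC mimic replicate 3 or miR-21-3p mimic replicates 1 or 3. Those for GABARAPL1 (-0.35 to -0.24) and OPTN (-0.29 to -0.22) were lost without these or NC mimic replicate 1, and that for ATG3 (0.17 to 0.22) without any library other than NC mimic replicate 2.

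Of the 28 other lysosomal hydrolases and cofactors, 4 were lower and none was higher in limma, beside 4.66% and 6.11% of all tested genes. A further 3 cysteine cathepsins fell at low levels. CTSK counted 184, 109 and 133 in the controls and 94.8, 90.1 and 76.3 with the mimic (log2 difference -0.67, -1.05 to -0.29; limma adjusted p = 0.032). CTSF counted 213, 151 and 195 and then 130, 145 and 98.7 (log2 difference -0.58, limma adjusted p = 0.0385). CTSO counted 86.5, 97.9 and 116 and then 65.3, 72.7 and 67.3 (log2 difference -0.53, limma adjusted p = 0.0374), and DESeq2 did not call it (adjusted p = 0.0627). CTSK, CTSF, CTSO and CTSS had the lowest levels per kilobase of exon among the cathepsins tested here (33.9 to 133 in the controls). They also had the largest point differences, a pattern seen after the values and not tested. The intervals of CTSF (-0.93 to -0.23) and CTSO (-0.85 to -0.22) overlapped that of CTSA (-0.28 to -0.08). HGSNAT, an acetyltransferase of heparan sulfate breakdown, was lower (log2 difference -0.28, limma adjusted p = 0.012). The calls for CTSK (-0.74 to -0.47) and CTSF (-0.62 to -0.42) were lost without NC mimic replicates 1 or 3 or miR-21-3p mimic replicates 1 or 3. Those for CTSO (-0.52 to -0.42) and HGSNAT (-0.28 to -0.24) were lost without NC mimic replicate 3 or miR-21-3p mimic replicates 1 or 3.

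The remaining lists held few calls, beside 6.11% of all tested genes higher and 4.66% lower in limma. Among 16 other lysosomal membrane proteins, LAPTM4B was higher at 3240, 3510 and 3470 against 3960, 4000 and 4150 (log2 difference 0.25, limma adjusted p = 0.0106), and SIDT2 was lower (log2 difference -0.30, limma adjusted p = 0.0266). Among 19 genes that control TFEB and TFE3, the kinase gene MTOR was higher at 1520, 1680 and 1540 against 1910, 1810 and 1980 (log2 difference 0.27, limma adjusted p = 0.0147), and TSC1, a brake on that kinase, was lower at 3300, 3200 and 3220 against 2950, 2740 and 2890 (log2 difference -0.18, limma adjusted p = 0.0281). None of the 12 genes that deliver enzymes to lysosomes was called by limma or edgeR, while DESeq2 called 1 lower. In limma 5 had an unadjusted p under 0.05, a level for which the share of all tested genes is not given here. VPS35 of the retromer, with the most reads, differed by 0.05 (0.03 to 0.07 with 1 library left out). LAPTM4B lost its call without NC mimic replicate 3 (0.26), MTOR without this library or miR-21-3p mimic replicates 1 or 3 (0.24 to 0.26), SIDT2 without these or NC mimic replicate 1 (-0.30 to -0.25), and TSC1 without any library other than NC mimic replicate 2 (-0.20 to -0.15).

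**Figure D4:**
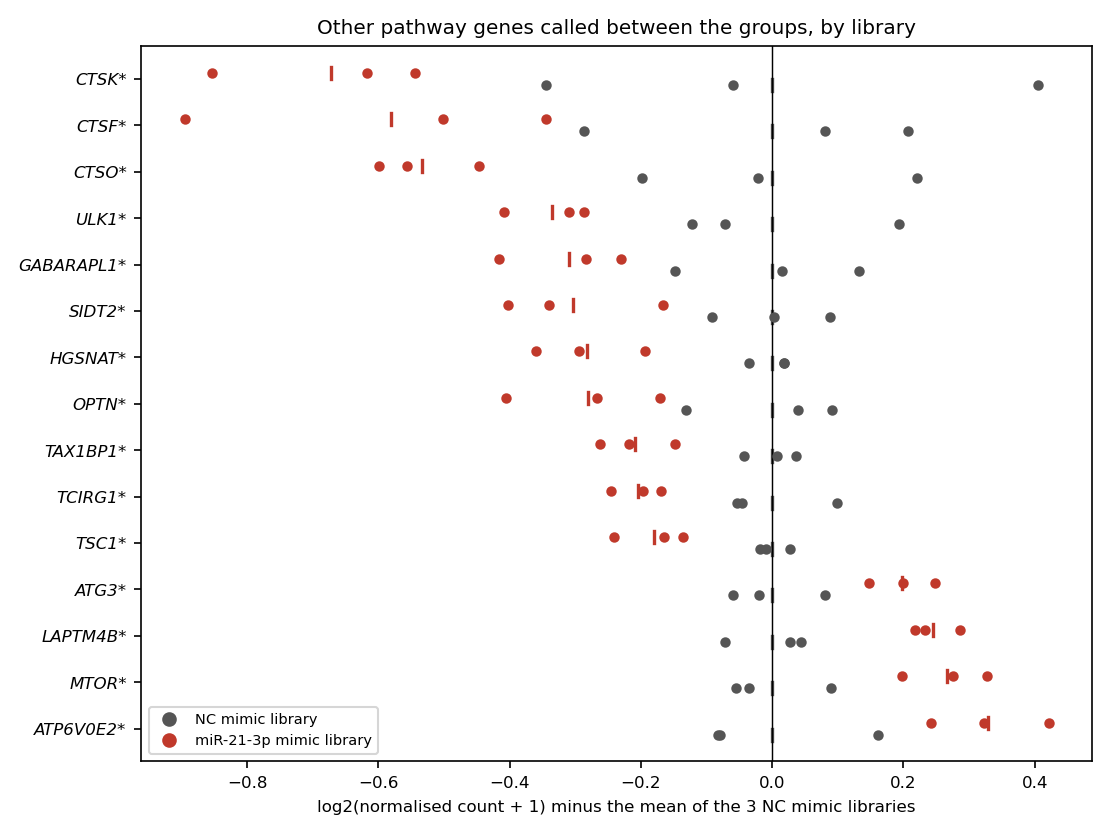
Log2 of the normalized read count plus 1 of each library minus the mean of the 3 NC mimic libraries (horizontal axis) for the 15 other pathway genes called between the groups. Grey points are NC mimic and red points miR-21-3p mimic libraries, and ticks are group means. The groups do not overlap for any of the 15, from CTSK at -0.67 to ATP6V0E2 at 0.33. These genes were chosen by their call on the same values, so the lack of overlap adds no support.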

How the data were processed

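HaCaT RNA from 3 miR-21-3p mimic and 3 NC mimic transfections was read from a single table of 22152 genes. The labels give polyadenylated RNA and a stranded mRNA kit, the published methods small RNA libraries, and which holds was not tested. Per the labels, the authors used bcl2fastq 2.18.12, cutadapt 1.15, TopHat2 2.1.1, featureCounts (Subread 1.5.2) and DESeq2; build and annotation are not given in the sources used here. The deposited values are a signal, gene counts divided by size factors and written to 3 significant digits. Steps of 1 read were worth 0.8974 to 1.042 units, and of values up to 100 reads 98.5% to 100.0% per library were whole within 0.1 read. The planned edgeR test needs raw counts, so limma 3.58.1 (trend) was run on log2(value + 1) for genes with a value of at least 10 in at least 3 libraries, with Benjamini-Hochberg adjustment over all 14795 tested genes and a threshold of 0.05. On recovered reads, edgeR 4.0.16 with TMM called 879 genes higher and 761 lower. Results were also computed with DESeq2 1.42.0, TMM scaling, no filter, a replicate block and each library left out; edgeR on recovered reads and a pseudocount of 5 were chosen after seeing the data. The procedure was also run on simulated data with far fewer changed genes than were called here, and no result rests on that run. Named were all members, with library values for those called, TFEB, TFE3, SQSTM1, the most abundant member of each role, and up to 4 called genes per direction of each pathway list, or its most abundant gene; NBR1, CALCOCO2, ATP6V1B1 and GGA2 were named beyond this rule, after the values were seen. The members and lists were chosen with earlier results of these data known. Genes were matched by identifier; rows whose symbol was CLN3 or FLCN but whose identifier was that of another gene were left out, and 1 gene of the pathway lists is not reported here. Promoter windows are RefSeq sequences of GRCh38.p14.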

Additional observations from a re-analysis of the deposited data

How the results depend on the processing

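The 8 member calls were kept with TMM scaling, edgeR with TMM or RLE scaling, DESeq2 and a pseudocount of 5; with RLE scaling LGMN was also called lower, and without a filter PSAP was lost, leaving 5 lower. Gene counts ranged from 819 to 909 higher and 624 to 777 lower over these settings. Other pathway genes higher were 4 in the main test and 3 with DESeq2 or without a filter, with ATG3 lost in both. DESeq2 also lost CTSO and called ATP6V1B1 and GGA2 lower. With 1 library left out, which leaves 3 against 2, limma called 98 to 1632 genes higher and 81 to 1334 lower. Members called higher ranged from 0 to 3 and members called lower from 1 to 12. Other pathway genes called higher ranged from 0 to 6 and those called lower from 0 to 15. The cause of the rise without NC mimic replicate 2 was not tested. CTSS was called in all of these fits.

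With 1 library left out the sign turned for GLB1 (-0.04 to 0.01), NPC1 (-0.03 to 0.05), SCARB2 (-0.08 to 0.03), CD63 (-0.04 to 0.00), ATP6V0A1 (-0.03 to 0.08), ATP6V1D (-0.06 to 0.00) and ATP6V1H (-0.04 to 0.02), none of them called. The cause was not tested.

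Same-numbered libraries did not deviate together (correlations 0.00, -0.20 and -0.16 over genes), so the numbers were not taken to pair samples. With the replicate block 681 genes were higher and 512 lower, with 1 member higher (CTSC), 2 lower (CTSS and NEU1), 3 other pathway genes higher and 9 lower (lost were ATG3, TCIRG1 and TSC1); the block leaves fewer residual degrees of freedom. Values were written to 3 significant digits, and the members' 95% intervals reached a median of 0.12 to either side on the log2 scale.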
